A study of Homo sapiens with 11 samples.

Results

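The 36 genes described here are those of the hypoxia response and of glycolysis, taken as the rows of a count table of 57736 genes whose Ensembl IDs carry the symbols of a fixed list. Its genes were chosen with earlier results of these data known. The list holds HIF1A and the oxygen sensors EGLN1 and EGLN3, glucose transporters, the enzymes of glycolysis and their regulators, and targets of hypoxia signalling. All 36 were in the table, and 34 had enough counts to be tested, among 13980 genes tested in all. CA9, a carbonic anhydrase at the cell surface, was at 0 in every library, and ANKRD37, a hypoxia target, had 32 counts over the 11 libraries; neither was tested.

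The cells were HEC50B, a line grown from an endometrial cancer. Its parental form has the R183W change in PPP2R1A, which encodes a scaffold subunit of PP2A, a phosphatase. Its comparator is the same line returned to the wild-type codon (WT) with CRISPR, and the labels do not say how many clones it holds. Each line was grown for 4 days with vehicle or with 50 µM WM1119, an inhibitor of KAT6A, an acetyltransferase that acts on histones. R183W vehicle, WT vehicle and WT WM1119 had 3 libraries each and R183W WM1119 had 2, all from bulk RNA, and no label states an oxygen level.

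HIF1A encodes the oxygen-regulated subunit of the transcription factor HIF. In normal oxygen the prolyl hydroxylases EGLN1 and EGLN3 mark this subunit for destruction through VHL, so that HIF is set mainly at the protein level, which transcript counts do not show. In low oxygen HIF binds the core motif ACGTG or GCGTG near its targets, among them most glycolytic enzymes, glucose transporters, VEGFA and NDRG1, and many tumours keep part of this programme on in normal oxygen.

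Promoters of 4 members whose level changed with WM1119 are shown to give the place where such motifs lie. Each is the 250 bases before the start of a RefSeq transcript (GRCh38.p14), read 5′ to 3′ on the strand of the gene, and capitals mark ACGTG or GCGTG on either strand (CACGT or CACGC when read on the strand shown). The counts were made on an earlier build, hg19, and no coordinate of theirs is used.
PGK1, chrX:78103998-78104247, strand plus: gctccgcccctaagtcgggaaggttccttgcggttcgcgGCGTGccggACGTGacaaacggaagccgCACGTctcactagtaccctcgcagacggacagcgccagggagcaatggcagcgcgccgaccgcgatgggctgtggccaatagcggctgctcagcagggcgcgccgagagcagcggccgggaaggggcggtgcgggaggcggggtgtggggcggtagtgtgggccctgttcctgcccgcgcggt
ADM, chr11:10304823-10305072, strand plus: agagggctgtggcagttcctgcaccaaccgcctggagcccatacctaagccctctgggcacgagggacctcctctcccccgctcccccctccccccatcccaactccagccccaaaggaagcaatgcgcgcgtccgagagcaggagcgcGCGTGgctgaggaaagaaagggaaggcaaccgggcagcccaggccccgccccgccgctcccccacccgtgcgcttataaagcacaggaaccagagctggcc
ERO1A, chr14:52695559-52695808, strand minus: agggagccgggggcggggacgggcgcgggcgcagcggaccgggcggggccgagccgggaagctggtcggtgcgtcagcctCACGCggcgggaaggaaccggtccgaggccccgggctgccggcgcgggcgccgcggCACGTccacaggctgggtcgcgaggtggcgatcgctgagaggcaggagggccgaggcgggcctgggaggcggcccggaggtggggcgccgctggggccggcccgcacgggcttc
CA12, chr15:63381847-63382096, strand minus: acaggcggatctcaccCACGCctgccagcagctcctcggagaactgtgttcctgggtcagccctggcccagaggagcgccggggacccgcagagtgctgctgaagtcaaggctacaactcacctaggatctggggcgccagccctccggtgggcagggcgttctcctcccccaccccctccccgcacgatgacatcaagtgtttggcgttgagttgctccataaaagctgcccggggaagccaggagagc
PGK1, a glycolytic kinase, holds ACGTG at 2 places, the farther one 202 bases upstream of the start, and GCGTG once. ERO1A, an oxidase that helps form disulfide bonds in the endoplasmic reticulum, holds ACGTG at 114 bases and GCGTG once. ADM, which encodes the peptide adrenomedullin, and CA12, a carbonic anhydrase of the plasma membrane, hold only GCGTG, once each. These counts are for the 250 bases shown. With the 50 bases after the start, PGK1 had 3 matches to ACGTG, and ERO1A and CA12 had 2 each to GCGTG.

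RefSeq promoter windows of 300 bases (250 before the start and 50 after it) were at hand for 32 of the 36 members, 55 windows in all, while NDRG1, BNIP3L, VEGFA and SLC2A3 had none. ACGTG was in 24 of the 55 windows (43.64%), against 25.57% of the 14864 windows of genes tested and 21.41% of all 35116 windows. GCGTG was in 40.0% of the members' windows and in 48.53% of those of genes tested. The members' windows had a median GC content of 69.67%, against 65.0% in windows of genes tested. In 20 of the 32 genes at least 1 window held ACGTG, against 3326 of the 10122 genes tested that had windows. The 32 genes include CA9 and ANKRD37, which were not tested and each had a window with ACGTG. In 1 window of LDHA, the enzyme that turns pyruvate into lactate, there were 5 matches, counted on both strands and with overlaps. A match describes letters in a window and is not evidence of binding.

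The smallest library, WT WM1119 library 3, had 2609922 counts and the largest, R183W vehicle library 1, had 6065149. The unit of level is CPM, the share of the library total taken by a gene after TMM scaling, set to a common total, and a count of 0 allows up to 0.494 to 1.24 CPM, depending on the library (3 counts, counting error only). WT WM1119 library 3 stood apart: its log2 levels correlated at 0.917 and 0.937 with the other libraries of its group, while all other pairs within groups lay between 0.957 and 0.975. Where leaving it out moved a value described here by over 1.5 times, turned its sign or changed a call, the value without it stands beside the main one. PPP2R1A itself was at 34.2 ± 2.85 CPM in R183W vehicle and 23.2 ± 2.69 CPM in WT vehicle (SD, n = 3 each), and KAT6A at 170 ± 26.2 and 149 ± 28.7 CPM; gene counts show neither the edited codon nor the inhibition of an enzyme. Of 6 epithelial markers KRT18 was at 741.4 to 1569 CPM, KRT8 at 140.2 to 250.6 CPM, EPCAM at 37.02 to 91.6 CPM and KRT7 at 0.2563 to 7.078 CPM, while CDH1 and KRT19 were near 0 with 14 and 2 counts in all. Of the lineage markers PAX8 was at 325.3 to 548 CPM and EMX2 at 1.538 to 10.86 CPM. ESR1 had 6 counts in all, and SOX17 and PGR were at 0.

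Of 6 fibroblast and stromal markers COL1A1 was at 563.4 to 924.6 CPM, PDGFRB at 0.2393 to 52.09 CPM and LUM at 0 to 4.129 CPM, COL1A2 had 4 counts in all, and COL3A1 and DCN were at 0. Of the endothelial markers CDH5 and KDR were at 0, VWF had 7 counts in all, each in R183W vehicle, and PECAM1 matched no row. Of the immune markers CD68 was at 2.563 to 10.91 CPM, CD14 and PTPRC had 4 and 2 counts in all, and CD3E and MS4A1 were at 0. Summed over each list, epithelial markers were at 1648 to 1847 CPM in R183W vehicle, 1624 to 1625 in R183W WM1119, 947.9 to 1209 in WT vehicle and 1168 to 1526 in WT WM1119. The stromal list was at 727.3 to 933.1, 563.6 to 566.6, 611.4 to 693 and 841.4 to 893.7 CPM in the same order, nearly all of it COL1A1. The labels number the replicates without saying that they are separate cultures, so the p-values reflect no more than the spread among these libraries, which could be technical.

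**Figure D1:**
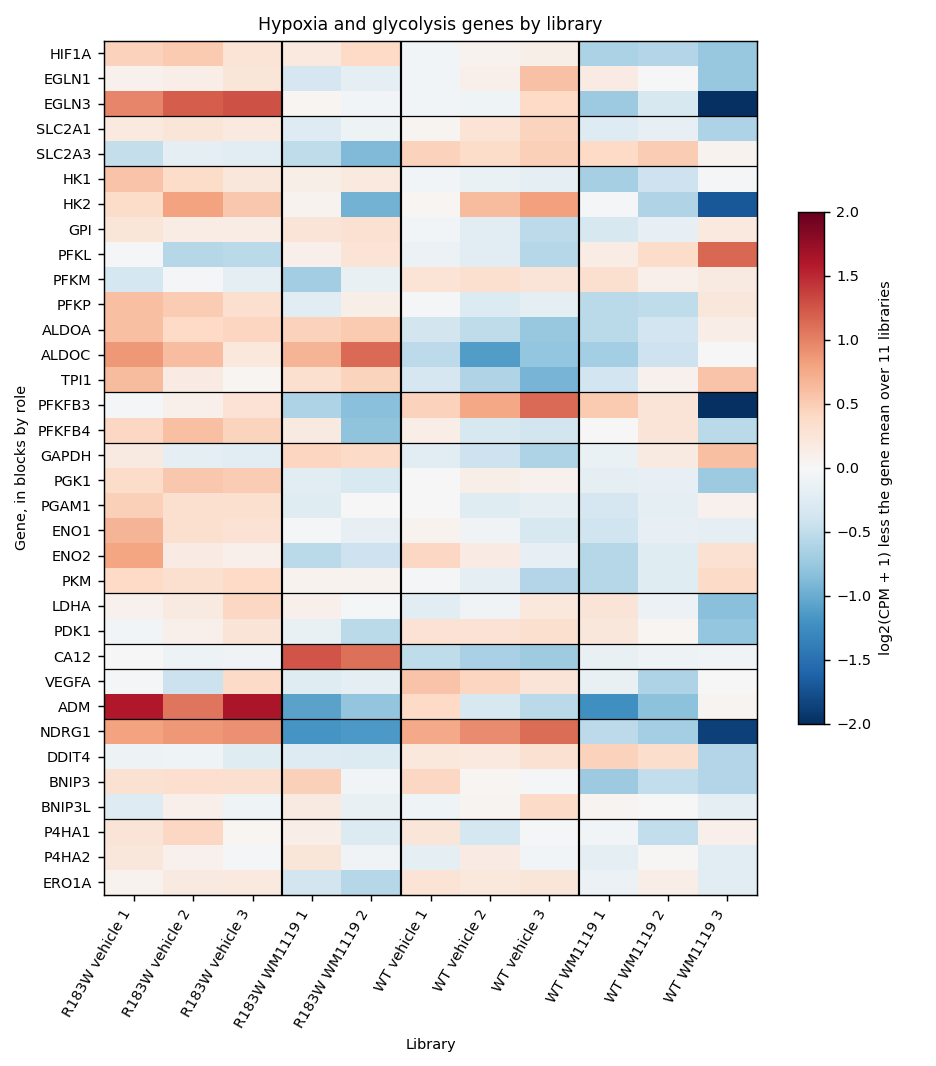
Colour gives log2(CPM + 1) of each of the 34 tested members (rows, in blocks by role) in each of the 11 libraries (columns), less the mean of the gene over all libraries. NDRG1 is low in the 5 WM1119 libraries, and in WT WM1119 library 3 many glycolytic enzymes are high while PFKFB3 and EGLN3 are low.

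The first question was how these genes changed with WM1119 in cells with mutant PPP2R1A. In R183W cells NDRG1, ADM, PGK1 and ERO1A fell with WM1119 and CA12 rose, so that 5 of 34 tested members (14.7%) were called at an adjusted p under 0.05, where 4.64% of all genes tested were called (1.99% higher, 2.65% lower). The median log2 change over the 34 members was -0.30, while that over all genes tested was -0.0011, and 25 members had a negative value and 9 a positive one. A transcript can be lower in bulk RNA because fewer cells hold it or because each cell holds less, and these cannot be told apart. In 23 members the WM1119 and vehicle libraries did not overlap, as was the case for 46.8% of all genes tested. Cell-type markers moved in the same comparison: EPCAM rose (log2 change 1.07, adjusted p = 0.00162), COL1A1 fell (-0.56, adjusted p = 0.0241), and PDGFRB went from 3.456, 7.684 and 6.269 CPM to 0.2393 and 0.3012 CPM (adjusted p = 0.00749). Without R183W WM1119 library 1 or 2 the adjusted p was 0.124 or 0.106 for PDGFRB and 0.172 or 0.191 for COL1A1, and for COL1A1 0.093 or 0.109 without R183W vehicle library 2 or 3. Their part in the result was not tested.

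NDRG1 (ENSG00000104419), a hypoxia target that restrains growth and spread in several tumours, had 133.6, 140 and 144.6 CPM in the R183W vehicle libraries and 33.27 and 33.74 CPM in the WM1119 libraries. The WT line had 129.3, 148.7 and 167.8 CPM with vehicle and 53.03, 47.16 and 20.19 CPM with WM1119. All WM1119 libraries of both lines lay below every vehicle library, and the lowest was WT WM1119 library 3. The fall was 4.16-fold in R183W cells (log2 change -2.06, SE 0.29, adjusted p = 0.00116, edgeR quasi-likelihood test) and 3.62-fold in WT cells (-1.86, SE 0.24, adjusted p = 0.000859). Without WT WM1119 library 3 the fall in WT cells was 2.96-fold (-1.57).

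ADM (ENSG00000148926), whose peptide product widens vessels, had 35.71, 24.55 and 36.4 CPM in R183W cells with vehicle and 4.787 and 6.025 CPM with WM1119. The groups did not overlap, and the fall was 5.98-fold (log2 change -2.58, SE 0.42, adjusted p = 0.00374). The WT line had 14.91, 8.745 and 7.32 CPM with vehicle and 4.164, 5.895 and 11.54 CPM with WM1119. These WT groups overlapped, with a log2 change of -0.59 (SE 0.37, adjusted p = 0.389), or -1.03 without WT WM1119 library 3 (adjusted p = 0.0967). Without R183W WM1119 library 1 or library 2, the adjusted p in R183W cells was 0.075 or 0.0502.

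PGK1 (ENSG00000102144), which makes the first ATP of glycolysis, had 342.6, 385.7 and 374.7 CPM in R183W vehicle and 228.3 and 213.3 CPM in R183W WM1119. The WM1119 libraries lay below all vehicle libraries, a 1.67-fold fall (log2 change -0.74, SE 0.16, adjusted p = 0.0211). In WT cells the levels were 261.5, 285.4 and 281.4 CPM with vehicle and 229.9, 236.1 and 158.6 CPM with WM1119, again without overlap and without a call (log2 change -0.40, or -0.24 without WT WM1119 library 3). PGK1 has processed pseudogenes that can share its reads. Without R183W WM1119 library 1 or 2 the adjusted p in R183W cells was 0.142 or 0.233, and without R183W vehicle library 2 or 3 it was 0.0854 or 0.0744.

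ERO1A (ENSG00000197930) had 70.59, 76.62 and 77.25 CPM in R183W vehicle and 51.93 and 44.88 CPM in R183W WM1119. The groups did not overlap, and the log2 change was -0.63 (SE 0.16, adjusted p = 0.0352). In WT cells 81.24, 77.95 and 79.58 CPM with vehicle stood against 61.8, 73.82 and 57.26 CPM with WM1119, with no call. The R183W call was lost without R183W WM1119 library 1 or 2 (adjusted p = 0.137 or 0.323), R183W vehicle library 1, 2 or 3 (0.0538, 0.115, 0.115) or WT vehicle library 2 (0.0544).

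CA12 (ENSG00000074410), which helps cells export acid, moved the other way. It had 520, 489 and 497.1 CPM in R183W vehicle and 1256 and 1129 CPM in R183W WM1119. In WT cells it had 366.8, 335.2 and 318.1 CPM with vehicle and 470.5, 489.3 and 497.7 CPM with WM1119. In each line every WM1119 library lay above every vehicle library, and the WM1119 level of WT cells reached the vehicle level of R183W cells. The rise was 2.38-fold in R183W cells (log2 change 1.25, SE 0.12, adjusted p = 4.25e-05) and 1.43-fold in WT cells (0.51, SE 0.11, adjusted p = 0.0138). Leaving out library 2 or 3 of WT vehicle (adjusted p = 0.0729 or 0.0761) or library 2 of WT WM1119 (0.0564) ended the WT call.

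**Figure D2:**
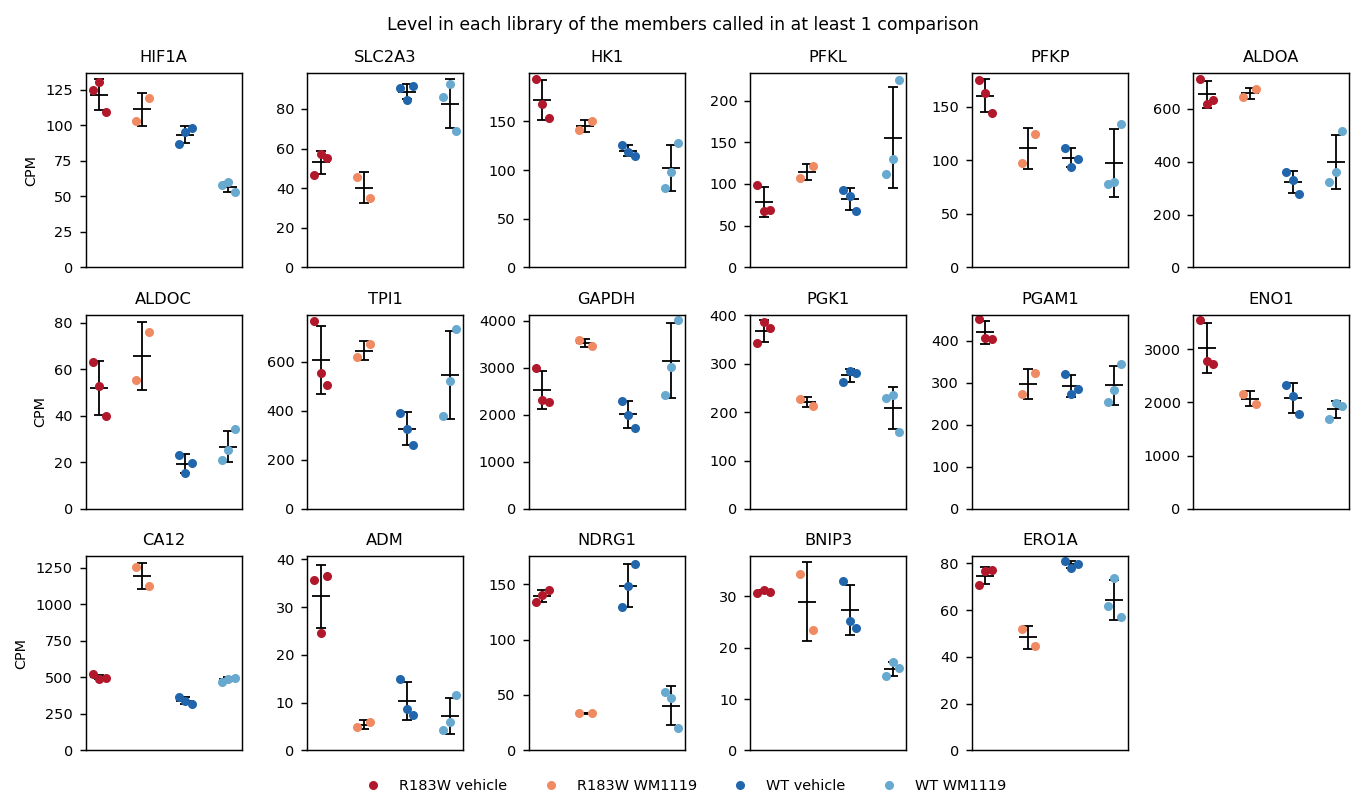
Each panel shows the CPM (vertical axis, from 0) of a member called in at least 1 comparison, with a point for each library and the mean ± SD of each of the 4 groups in black. NDRG1 is at 33.27 and 33.74 CPM in R183W WM1119 against 133.6 CPM or more in R183W vehicle, and CA12 is highest in the 2 R183W WM1119 libraries.

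The same question was put to the WT line, where HIF1A, NDRG1 and BNIP3 fell with WM1119 and CA12, PFKL and GAPDH rose. These 6 of 34 tested members (17.6%) compare with 4.86% of all genes tested (2.33% higher, 2.53% lower). The median log2 change was -0.15, against -0.0031 over all genes tested, with 24 negative and 10 positive values. WM1119 and vehicle libraries did not overlap in 13 members, and in 22.3% of all genes tested. Of the cell-type markers COL1A1 rose in this comparison (log2 change 0.46, adjusted p = 0.0354), a call lost in 7 of 11 fits that left out 1 library (adjusted p up to 0.136, without WT vehicle library 2). Its part in the result was not tested.

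HIF1A (ENSG00000100644) had 86.81, 95.25 and 97.98 CPM in WT vehicle and 57.63, 59.72 and 52.73 CPM in WT WM1119. In R183W cells it had 124.7, 130.4 and 109 CPM with vehicle and 102.9 and 119.3 CPM with WM1119. The WT groups were far apart, while the R183W groups overlapped. The fall in WT cells was 1.64-fold (log2 change -0.72, SE 0.13, adjusted p = 0.00792), and the value in R183W cells was -0.13 (SE 0.14, adjusted p = 0.673). The WT call was kept without any single library, and was lost only when the fit held just these 2 groups (adjusted p = 0.0607).

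BNIP3 (ENSG00000176171), a receptor for the removal of mitochondria, had 32.94, 25.29 and 23.84 CPM in WT vehicle and 14.46, 17.17 and 16.07 CPM in WT WM1119. The groups did not overlap, with a log2 change of -0.78 (SE 0.20, adjusted p = 0.0407). In R183W cells it had 30.61, 31.16 and 30.94 CPM with vehicle and 34.46 and 23.5 CPM with WM1119, 1 above and 1 below the vehicle range. The WT call lay near the threshold: it was lost without any 1 of the 3 R183W vehicle libraries (adjusted p = 0.0535, 0.0657 and 0.0646), any 1 of the 3 WT vehicle libraries (0.101, 0.0891 and 0.0688), and WT WM1119 library 1 or 2 (0.0663 or 0.0838).

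GAPDH (ENSG00000111640), the enzyme before PGK1 in the pathway, had 2300, 1992 and 1730 CPM in WT vehicle and 2422, 3018 and 4014 CPM in WT WM1119. PFKL (ENSG00000141959), the liver form of phosphofructokinase, had 92.82, 85.55 and 67.57 CPM in WT vehicle and 111.8, 129.7 and 224.5 CPM in WT WM1119. In both genes every WM1119 library was above every vehicle library, and WT WM1119 library 3 was the highest. The log2 change was 0.65 for GAPDH (SE 0.17, adjusted p = 0.0449) and 0.91 for PFKL (SE 0.24, adjusted p = 0.0424).

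Without WT WM1119 library 3 the log2 change was 0.44 for GAPDH (adjusted p = 0.0607) and 0.56 for PFKL (adjusted p = 0.0643). Both calls were also lost without R183W vehicle library 2 (0.0693, 0.0631) or 3 (0.0663, 0.0627), WT vehicle library 2 (0.139, 0.118) or 3 (0.184, 0.171), R183W WM1119 library 1 (0.068, 0.0644) or 2 (0.0685, 0.0642), and WT WM1119 library 2 (0.103, 0.0682), with GAPDH first in each pair. For PFKL this was so without WT vehicle library 1 too (0.0546). In R183W cells PFKL had 98.9, 67.66 and 68.96 CPM with vehicle and 107.5 and 121.4 CPM with WM1119, and GAPDH had 2995, 2317 and 2278 CPM with vehicle and 3593 and 3469 CPM with WM1119. These R183W groups did not overlap in either gene, and neither was called. GAPDH has many pseudogenes that can share its reads.

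Next to these calls stood members that did not pass the test. The oxygen sensor EGLN1 had 26.66, 27.53 and 29.73 CPM in R183W vehicle and 19.63 and 21.69 CPM in R183W WM1119, a log2 change of -0.44 (adjusted p = 0.4). The WT line had 24.04, 26.81 and 38.1 CPM with vehicle and 28.27, 25.12 and 14.42 CPM with WM1119, with overlap (-0.37, adjusted p = 0.404). Without WT WM1119 library 3 this was -0.15 (adjusted p = 0.747). EGLN3, itself a HIF target, had log2 changes of -1.30 (adjusted p = 0.182) and -1.18 (adjusted p = 0.205) in R183W and WT cells, from 13.2 and 5.79 CPM with vehicle. Its WT WM1119 libraries were at 2.849, 4.101 and 0 CPM, and without library 3, the one at 0, the WT value was -0.75 (adjusted p = 0.258).

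The glucose transporter SLC2A1 had 27.48, 28.39 and 27.5 CPM in R183W vehicle and 19.63 and 21.99 CPM in R183W WM1119. In WT cells it had 24.71, 28.9 and 32.66 CPM with vehicle and 19.72, 21.02 and 15.24 CPM with WM1119. The groups did not overlap in either line, yet the log2 changes of -0.42 (adjusted p = 0.278) and -0.61 (adjusted p = 0.0724) missed the threshold. With DESeq2 the adjusted p in WT cells was 0.0467.

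LDHA had 185.8, 197.6 and 233 CPM in R183W vehicle and 187.6 and 172 CPM in R183W WM1119, with overlap. In WT cells it had 148.2, 166 and 202.7 CPM with vehicle and 209.1, 159.9 and 97.64 CPM with WM1119, the widest of the 4 groups. The log2 changes were -0.19 (adjusted p = 0.717) and -0.14 (adjusted p = 0.758), and the WT value was 0.10 without WT WM1119 library 3 (adjusted p = 0.771).

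HK2, the inducible hexokinase, had log2 changes of -0.95 (adjusted p = 0.209) in R183W cells and -1.16 (adjusted p = 0.0817) in WT cells. VEGFA, the growth factor of vessels, had -0.23 (adjusted p = 0.662) and -0.68 (adjusted p = 0.0893), and the WT value without WT WM1119 library 3 was -0.80 (adjusted p = 0.0402). ENO1, an enolase, had -0.55 in R183W cells (adjusted p = 0.059).

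**Figure D3:**
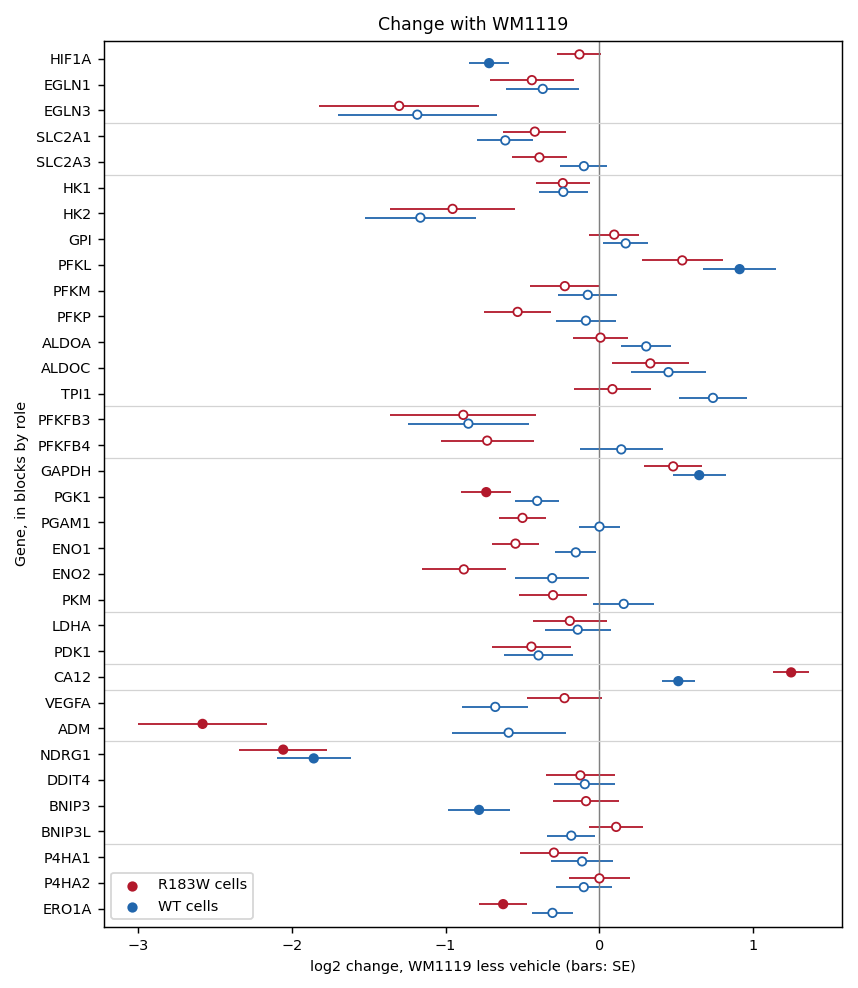
The log2 change with WM1119 (horizontal axis, bars are SE) is drawn for the 34 tested members in R183W cells (red) and WT cells (blue), and filled points were called at an adjusted p under 0.05. NDRG1 is far to the left in both lines at -2.06 and -1.86, and CA12 is to the right at 1.25 and 0.51.

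How many members were called moved with single libraries. The counts that follow stand without the share of all genes called in the same fits, so they do not set the members apart from other genes. In R183W cells the count of 5 became 3 without R183W vehicle library 2 or 3, 2 without R183W WM1119 library 1 or 2, and 13 once WT WM1119 library 3 was left out, a library of neither group compared that enters through the shared fit. The members added without it were EGLN3 (adjusted p = 0.0154), HK2 (0.0494), PFKP (0.0154), PFKFB3 (0.016), PGAM1 (0.00825), ENO1 (0.00982) and ENO2 (0.0119), all lower with WM1119, and GAPDH (0.0337), higher. In WT cells the count of 6 became 3 without R183W vehicle library 2 or 3, and 2 without library 2 or 3 of WT vehicle or library 2 of WT WM1119.

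Whether the inhibitor changed a gene to a different degree in the 2 lines was tested with the interaction, which subtracts the log2 change of WT cells from that of R183W cells. None of the 34 members was called by edgeR, as against 0.286% of all genes tested (0.093% higher, 0.193% lower). At an unadjusted p under 0.05, 3 members had a positive and 3 a negative value, as did 573 and 727 of the 13980 genes tested. DESeq2 called 2 members, CA12 and ADM, a count that stands without the share of all genes it called. The smallest adjusted p among members was that of CA12, which had a difference of 0.73 (SE 0.16, adjusted p = 0.0778). ADM had -1.99 (SE 0.56, adjusted p = 0.209), HIF1A had 0.59 (SE 0.19, adjusted p = 0.307), and NDRG1 had -0.20 (adjusted p = 0.93), or -0.51 without WT WM1119 library 3 (adjusted p = 0.238).

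HIF1A was thus called in WT cells and ADM in R183W cells, and the difference between the lines passed the edgeR test for neither. Over the members the median difference was -0.13, with 26 negative and 8 positive values. Of the 15 glycolytic enzymes tested, 14 had a negative value, with a median of -0.33. Without WT WM1119 library 3, 11 of the 15 had a negative value, with a median of -0.18, and 1 member, CA12, was called in the interaction (0.73, adjusted p = 0.016).

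The next question was how the mutant and the corrected line differed before any inhibitor. Under vehicle, 10 of 34 members (29.4%) differed between R183W and WT cells, where 13% of all genes tested did (6.82% higher, 6.17% lower). HK1, PFKP, ALDOA, ALDOC, TPI1, PGAM1, ENO1, CA12 and ADM were higher in R183W cells and SLC2A3 was lower. Of the 15 glycolytic enzymes 7 were called, all higher in R183W cells, and the median log2 difference was 0.52 over these 15 and -0.051 over the other 19 members. The median over all genes tested was -0.0081. R183W and WT libraries did not overlap in 21 members, and in 37.8% of all genes tested. Cell-type markers differed in the same contrast: PDGFRB was at 3.456 to 7.684 CPM in R183W cells and 29.16 to 52.09 CPM in WT cells (log2 difference -2.74, adjusted p = 0.000132), EPCAM was lower in R183W cells (-0.64, adjusted p = 0.00936), and KRT8 (0.64, adjusted p = 0.0024), KRT18 (0.73, adjusted p = 0.00353) and COL1A1 (0.44, adjusted p = 0.0205) were higher. EPCAM lost the call without R183W vehicle library 1 (0.053), and COL1A1 without R183W vehicle library 2 or 3 (0.0788 or 0.1) or library 1 or 2 of WT vehicle (0.0604 or 0.074). Their part in the result was not tested. These comparisons share the vehicle libraries with those of the inhibitor, so that a high level in R183W vehicle enters both.

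ALDOA (ENSG00000149925), the main aldolase, had 712.2, 618.1 and 632 CPM in R183W vehicle and 361.9, 330.2 and 276.7 CPM in WT vehicle. Its brain-type paralog ALDOC (ENSG00000109107) had 63.19, 52.72 and 39.84 CPM in R183W vehicle and 23.37, 15.21 and 19.52 CPM in WT vehicle. Neither gene showed any overlap between the lines. ALDOA was 2.03-fold higher in R183W cells (log2 difference 1.02, SE 0.16, adjusted p = 0.00113) and ALDOC 2.69-fold higher (1.43, SE 0.24, adjusted p = 0.00143).

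TPI1, which interconverts the products of aldolase, had 766, 551.9 and 505.2 CPM in R183W vehicle and 392.4, 327 and 259 CPM in WT vehicle. ENO1, which makes phosphoenolpyruvate, had 3551, 2781 and 2723 CPM against 2333, 2111 and 1777 CPM. PGAM1, the mutase just before it, had 452.4, 406.2 and 404.1 CPM against 322.5, 272.8 and 285.3 CPM. In these genes every R183W library was above every WT library, and R183W vehicle library 1 was the highest of all. The log2 difference was 0.90 for TPI1 (SE 0.22, adjusted p = 0.0176), 0.54 for ENO1 (SE 0.13, adjusted p = 0.0168) and 0.52 for PGAM1 (SE 0.13, adjusted p = 0.0211).

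HK1, the hexokinase most cells use, had 193.7, 167.8 and 153.1 CPM in R183W vehicle and 126, 118.1 and 114.9 CPM in WT vehicle. PFKP, the platelet form of phosphofructokinase, had 174.4, 162.2 and 143.6 CPM against 111.7, 93.92 and 101.2 CPM. Both were higher in R183W cells without overlap, by 0.52 for HK1 (SE 0.16, adjusted p = 0.0422) and 0.65 for PFKP (SE 0.19, adjusted p = 0.0388).

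Leaving out R183W vehicle library 1, or library 2 or 3 of WT vehicle, ended the call of each of these 5 genes, with adjusted p-values of 0.0828, 0.0564 and 0.0859 for TPI1, 0.0749, 0.0539 and 0.0869 for ENO1, 0.0688, 0.0794 and 0.0799 for PGAM1, 0.146, 0.105 and 0.134 for HK1, and 0.12, 0.121 and 0.113 for PFKP, in that order of libraries. PGAM1, HK1 and PFKP also lost the call without R183W vehicle library 2 (0.0566, 0.101, 0.108) or 3 (0.0503, 0.0569, 0.062). HK1 lost it further without WT vehicle library 1 (0.0537) and R183W WM1119 library 1 (0.0593) or 2 (0.0552). For the next counts, too, the share of all genes called in the same fits is not set beside them. The count of 10 members became 5 without R183W vehicle library 1 or library 2 or 3 of WT vehicle, and 19 without WT WM1119 library 3. The members added without that library were HIF1A (adjusted p = 0.0217), EGLN3 (0.00511), GPI (0.00728), PFKFB4 (0.0318), GAPDH (0.0477), PGK1 (0.00387) and PKM (0.0012), higher in R183W cells, and PFKFB3 (0.00903) and DDIT4 (0.00972), lower.

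Outside glycolysis, ADM was 3.14-fold higher in R183W vehicle than in WT vehicle (log2 difference 1.65, SE 0.33, adjusted p = 0.00465), at 32.2 ± 6.65 against 10.3 ± 4.04 CPM (SD, n = 3 each). CA12 was 1.48-fold higher (0.56, SE 0.11, adjusted p = 0.00322), at 502 ± 16.1 against 340 ± 24.7 CPM. HIF1A was at 121 ± 11.1 against 93.3 ± 5.82 CPM, a log2 difference of 0.38 that missed the threshold (SE 0.13, adjusted p = 0.0665). The ADM and CA12 calls held in every setting tried.

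SLC2A3 (ENSG00000059804), a glucose transporter of high affinity, was the called member that went the other way. It had 46.57, 57.2 and 55.41 CPM in R183W vehicle and 90.59, 84.41 and 91.41 CPM in WT vehicle. With WM1119 it had 45.71 and 34.94 CPM in R183W cells and 86.12, 92.78 and 68.8 CPM in WT cells. Every R183W library lay below every WT library under each treatment. The log2 difference was -0.74 under vehicle (SE 0.15, adjusted p = 0.0061) and -1.03 under WM1119 (SE 0.18, adjusted p = 0.00308). Without R183W WM1119 library 2 the adjusted p under WM1119 was 0.0803, and the call was also lost when the fit held only the 2 groups compared.

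**Figure D4:**
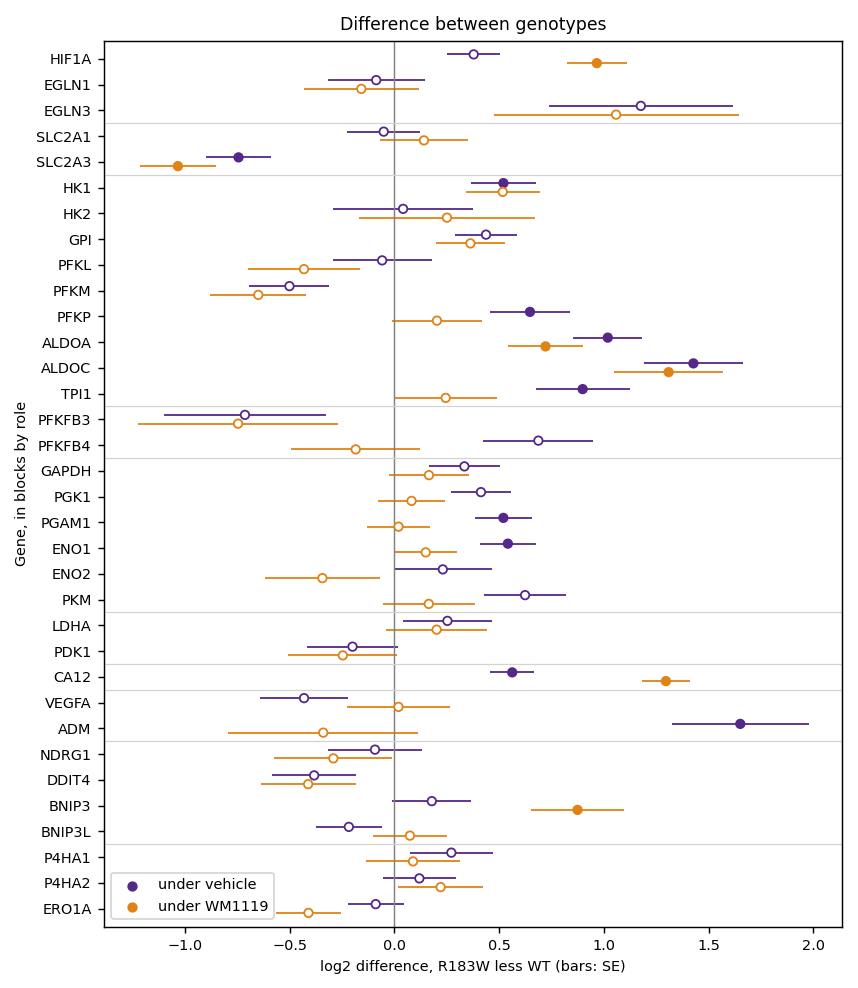
The log2 difference between R183W and WT cells (horizontal axis, R183W less WT, bars are SE) is drawn for the 34 tested members under vehicle (purple) and under WM1119 (orange), and filled points were called at an adjusted p under 0.05. ALDOA, ALDOC and CA12 are to the right under both treatments and SLC2A3 is to the left, while ADM is at 1.65 under vehicle and -0.34 under WM1119 (0.09 without WT WM1119 library 3).

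Under WM1119 the same contrast of genotypes called 6 of 34 members (17.6%), with 8.56% of all genes tested called (4.64% higher, 3.92% lower). HIF1A, ALDOA, ALDOC, CA12 and BNIP3 were higher in R183W cells, and SLC2A3 was lower. The median log2 difference over members was 0.12, against -0.0237 over all genes tested, and over the 15 glycolytic enzymes it was 0.165, or 0.36 without WT WM1119 library 3. R183W and WT libraries did not overlap in 11 members, and in 34.7% of all genes tested. Of the cell-type markers PDGFRB was lower in R183W cells (0.2393 and 0.3012 against 14.01 to 30.46 CPM, adjusted p = 7e-05), as was COL1A1 (-0.58, adjusted p = 0.0132), while KRT8 was higher (0.45, adjusted p = 0.0426). COL1A1 lost the call without R183W WM1119 library 1 or 2 (0.112 or 0.117), and KRT8 in 9 of 11 fits that left out 1 library (up to 0.231, without R183W WM1119 library 1). Their part in the result was not tested.

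HIF1A was 1.95-fold higher in R183W cells under WM1119 (log2 difference 0.97, SE 0.14, adjusted p = 0.001), at 111 ± 11.6 CPM (SD, n = 2) against 56.7 ± 3.59 CPM (SD, n = 3). CA12 was 2.46-fold higher (1.30, SE 0.12, adjusted p = 1.22e-05), at 1193 ± 90.3 against 486 ± 13.9 CPM. Both calls held in every setting tried, and in each gene all R183W libraries lay above all WT libraries.

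BNIP3 was 1.83-fold higher in R183W cells under WM1119 (log2 difference 0.87, SE 0.22, adjusted p = 0.026), with 34.46 and 23.5 CPM against 14.46, 17.17 and 16.07 CPM. Leaving out R183W WM1119 library 1 ended the call (adjusted p = 0.323), as did leaving out library 1 or 2 of WT WM1119 (0.0755 or 0.0518). ADM, higher in R183W cells under vehicle, had a log2 difference of -0.34 (SE 0.45, adjusted p = 0.702) under WM1119, with overlapping groups, and of 0.09 without WT WM1119 library 3 (adjusted p = 0.91).

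ALDOA had 643.1 and 672.7 CPM in R183W WM1119 and 322.4, 360.9 and 516.2 CPM in WT WM1119, while ALDOC had 55.29 and 75.91 CPM against 20.82, 25.37 and 34.19 CPM. Both were higher in R183W cells without overlap, although WT WM1119 library 3 came closest to them. The log2 difference was 0.72 for ALDOA (SE 0.18, adjusted p = 0.0236) and 1.31 for ALDOC (SE 0.26, adjusted p = 0.00657). Without R183W WM1119 library 2 these became 0.143 and 0.101 in adjusted p. ALDOA also lost the call without R183W WM1119 library 1 (0.12) and WT WM1119 library 1 or 2 (0.0621 or 0.0743).

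TPI1, called under vehicle, had 618.9 and 671.5 CPM in R183W WM1119 and 380.2, 522.6 and 733.7 CPM in WT WM1119, where library 3 exceeded both R183W libraries. The count of 6 members became 3 when R183W WM1119 library 2 was left out and 14 when WT WM1119 library 3 was. Both counts stand without the share of all genes called in the same fits. The members added without WT WM1119 library 3 were PFKP, PKM, GPI and HK1, higher in R183W cells, and NDRG1, DDIT4, PFKFB3 and ERO1A, lower.

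Several steps of glycolysis are served by paralogs, and their levels were compared as CPM per kb of 1 annotated transcript. Among aldolases ALDOA was at 408 ± 31.7 CPM per kb in R183W vehicle and 201 ± 26.9 in WT vehicle, while ALDOC was at 26.2 ± 5.9 and 9.77 ± 2.06 (SD, n = 3 each). Among enolases ENO1 was at 1290 ± 197 and 884 ± 119 CPM per kb, far above ENO2, the neuronal form, at 30.4 ± 8.48 and 26 ± 5.3. In each of these pairs the level of the lead paralog lay far outside the spread of the other in every group.

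Among the hexokinases that are members, HK1 was at 47.6 ± 5.7 and HK2 at 5.15 ± 0.814 CPM per kb in R183W vehicle. In WT vehicle they were at 33.2 ± 1.59 and 4.98 ± 1.36. HKDC1, a hexokinase that is not a member, was not scaled by length. It was at 91.67 ± 11.02 CPM in R183W vehicle and 146.9 ± 48 CPM in WT vehicle, against 171.5 ± 20.55 and 119.6 ± 5.722 CPM for HK1. The phosphofructokinases ranked PFKP, PFKL and PFKM in R183W vehicle at 60.3 ± 5.85, 27 ± 6.07 and 5.17 ± 0.583 CPM per kb. In WT WM1119 PFKL was at 53.3 ± 20.8 CPM per kb, from 38.4 to 77.1, and PFKP at 36.6 ± 11.9, from 29.4 to 50.3. The ranges overlap, and PFKL was above PFKP in each of the 3 libraries. Of the glucose transporters that are members, SLC2A3 was at 22.7 ± 0.977 and SLC2A1 at 7.84 ± 1.08 CPM per kb in WT vehicle. In R183W vehicle they were at 13.6 ± 1.45 and 7.57 ± 0.141. The transporter SLC2A8, not a member, was not scaled by length. It was at 31.89 CPM on average in WT vehicle and 56.43 CPM in R183W vehicle, against 88.8 and 53.06 CPM for SLC2A3.

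Glycolytic enzymes and the other members also moved apart between libraries of 1 group. In WT WM1119 library 3 the 15 glycolytic enzymes had a median log2 level 0.564 above the mean of the rest of its group, and the 19 other members a median of -0.376. R183W vehicle library 1 and WT vehicle library 1 were at 0.192 and 0.268 for the enzymes, and R183W vehicle library 3 and WT vehicle library 3 at -0.207 and -0.307. In WT WM1119 library 3 TPI1 was at 733.7 CPM and PKM, which makes pyruvate, at 2359 CPM, the highest of the WT WM1119 libraries. HK2 at 5.356 CPM, PFKFB3, which makes an activator of phosphofructokinase, at 5.768 CPM, and EGLN3 at 0 were the lowest.

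How far the deviation of a library followed the GC content of transcripts varied. Over the 34 members the correlation ran from -0.49 in R183W vehicle library 2 to 0.577 in R183W vehicle library 1, with 0.321 in WT WM1119 library 3. With transcript length it ran from -0.511 in R183W vehicle library 1 to 0.46 in R183W vehicle library 2, with -0.409 in WT WM1119 library 3. Over 13581 genes with a GC value the r with GC content was 0.242 in R183W vehicle library 1, -0.202 in WT vehicle library 3, 0.145 in WT WM1119 library 3 and within 0.01 of 0 in WT WM1119 library 2 and both R183W WM1119 libraries. These are correlations across genes that share a library and are descriptions.

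For the comparisons, r between GC content and the log2 value over members was -0.0513 for WM1119 in R183W cells, 0.277 for WM1119 in WT cells, 0.275 for the genotypes under vehicle, -0.0717 for the genotypes under WM1119 and -0.399 for the interaction. Over all genes these were 0.105, 0.209, 0.139, 0.0597 and -0.0707. The part of GC content in the results was not tested beyond a fit with a GC correction. That fit left 3 of 6 calls for WM1119 in WT cells, with BNIP3, GAPDH and PFKL no longer called. HK1 and PFKP were not called under vehicle in it (adjusted p = 0.0604 for each). The share of all genes called in that fit is not set beside these counts.

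**Figure D5:**
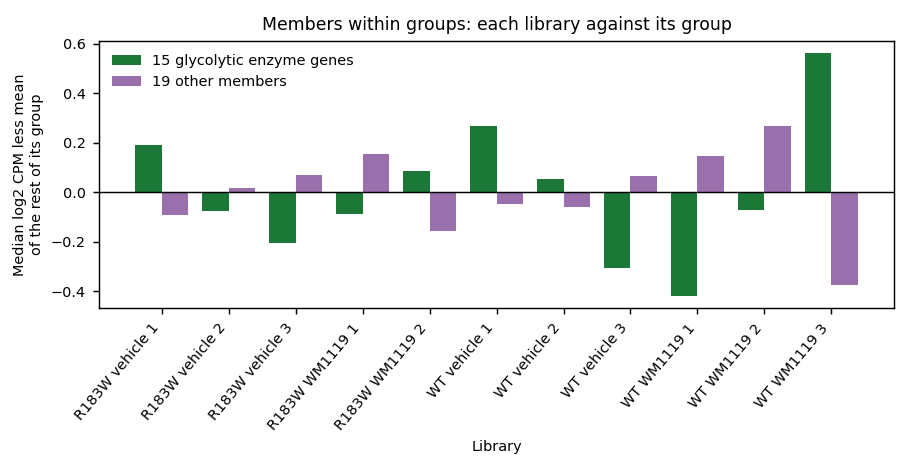
Bars give, for each of the 11 libraries, the median log2 CPM of the 15 glycolytic enzymes (green) and of the 19 other tested members (purple), less the mean of the rest of the group of that library. WT WM1119 library 3 has the widest gap, at 0.564 for the enzymes and -0.376 for the others.

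The wider pathway was read from a list of 62 other genes of HIF regulation, HIF targets, and glucose and lactate metabolism, 52 of which were tested. The list was chosen with earlier results of these data known, so its shares of calls are descriptions. In R183W cells 6 rose and 2 fell with WM1119, 15.4% of the 52 against 4.64% of all genes tested. PDK4 and PDK2, kinases that hold pyruvate back from oxidation in mitochondria, rose by 1.91 and 1.24 on the log2 scale, and MIF, a cytokine, by 1.36. LOX, which cross-links collagen, went from 41, 23 and 29 counts to 0 and 5 counts, and HILPDA, a lipid droplet protein, had a log2 change of -0.84. In WT cells 6 rose and 2 fell, again 15.4%, against 4.86% of all genes tested, among them MIF at 1.60, PPP1R3C at 1.22, PDK2 at 0.94 and ANGPTL4 at 0.83, with EPAS1, which encodes HIF-2α, at -1.36 and BHLHE41 at -0.69. The median log2 change of the 52 was 0.05 and -0.03.

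MIF, which is at the same time a HIF target, had 342.9, 213 and 262.9 CPM in R183W vehicle and 712.2 and 691 CPM in R183W WM1119. In WT cells it had 302.5, 292.2 and 214 CPM with vehicle and 653.3, 805.8 and 998.2 CPM with WM1119. Every WM1119 library was above every vehicle library, and both calls held in every setting tried, as did those of NDRG1.

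Between genotypes under vehicle 5 of the 52 were higher in R183W cells and 3 lower, 15.4% against 13% of all genes tested, a share near that background. ANGPTL4, a secreted inhibitor of lipoprotein lipase, differed by 1.60, HILPDA by 1.09 and SLC2A8 by 0.82, while PLOD2 was at -1.08, the coactivator EP300 at -0.70 and the lactate transporter SLC16A1 at -0.42. Under WM1119 3 were higher and 3 lower, 11.5% against 8.56% of all genes tested, likewise near the background. Among them were MPC1, a part of the mitochondrial pyruvate carrier, at 0.97, and ANGPTL4 at 0.68, against PPP1R3C at -2.06, the lactate exporter SLC16A3 at -1.44 and SLC16A1 at -0.48. None of the 52 was called in the interaction.

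Of the genes named from this list, calls held in every setting tried for MIF with WM1119 in both lines and, between genotypes, for ANGPTL4 and HILPDA under vehicle, and PPP1R3C under WM1119. Each of the other calls was lost without at least 1 single library. For WM1119 in R183W cells the highest adjusted p was 0.175 for PDK4 and 0.262 for LOX without R183W WM1119 library 1, and 0.15 for PDK2 and 0.12 for HILPDA without library 2. In WT cells it was 0.107 for PDK2, 0.0723 for PPP1R3C, 0.0548 for ANGPTL4, 0.0789 for EPAS1 and 0.104 for BHLHE41, each without WT vehicle library 3. Between genotypes under vehicle it was 0.102 for PLOD2 and 0.0923 for EP300 without R183W vehicle library 1, 0.0728 for SLC16A1 without R183W vehicle library 3, and 0.0605 for SLC2A8 without WT vehicle library 3. Under WM1119 it was 0.151 for SLC16A1 without R183W WM1119 library 1, and 0.183 for ANGPTL4, 0.0772 for MPC1 and 0.101 for SLC16A3 without library 2.

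The 17 members called in no comparison besides the 2 not tested included EGLN1, EGLN3, SLC2A1, LDHA, HK2 and VEGFA, described above. Of the others, GPI, which makes fructose 6-phosphate, was at 518.9 CPM on average in R183W vehicle and 383.4 CPM in WT vehicle. DDIT4, a brake on mTOR, was at 185.2 and 241.5 CPM, and BNIP3L, a relative of BNIP3, at 103.4 and 120.1 CPM. P4HA1 and P4HA2, which hydroxylate collagen, were at 66.99 and 27.42 CPM in R183W vehicle and 55.55 and 25.25 CPM in WT vehicle. PDK1 was at 31.18 and 35.79 CPM, PFKM at 16.65 and 23.53 CPM, and PFKFB4 at 30.34 and 18.87 CPM.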

How the data were processed

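RNA of 11 HEC50B libraries in 4 groups was sequenced. Expected counts of each gene, as deposited by the authors, were all whole numbers. STAR, RSEM and hg19 stand in the submitters' processing notes without versions or roles. The library kit was ScriptSeq Complete Gold, per the labels' protocols, although the labels give the molecule as polyA RNA. Estimated counts divide reads that match more than 1 gene, so that levels of genes with paralogs or pseudogenes (GAPDH, TPI1, PGK1, ENO1, PKM, LDHA, PGAM1, ALDOA, BNIP3) are uncertain. Of 57736 IDs, 51959 matched a symbol, holding 98.99% of counts. CPM, transcript lengths and GC content were computed here, the last 2 from 1 GENCODE transcript per gene.

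Genes passing filterByExpr were tested with edgeR 4.0.16 (quasi-likelihood, two-sided, TMM, 4 group means, all libraries; R 4.3.3) and adjusted by Benjamini-Hochberg over all genes tested, with calls at an adjusted p under 0.05. The biological coefficient of variation was 19.6%. DESeq2 1.42.0, no filter, a replicate block, only the groups compared, and leaving out each library were alternatives; a GC correction was chosen after seeing the data. Members and lists were chosen with earlier results of these data known. Every called member is given by library, with HIF1A, EGLN1, SLC2A1 and LDHA whatever their result; from the other pathway list, up to 4 called genes per comparison and direction with the largest log2 change are named, except a gene that is not reported here.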

Additional observations from a re-analysis of the deposited data

How the results depend on the processing

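Counts of members called moved with the setting. They are given without the share of all genes called under each setting, so they describe how stable the calls were and do not set the members apart. For WM1119 in R183W cells, 5 members became 12 without a filter, 8 with DESeq2, 3 with a replicate block and 16 with only the 2 groups compared, and 2 to 13 when each library was left out. In WT cells 6 became 10, 10, 3 and 1 under these settings, 3 with the GC correction, and 2 to 7 without single libraries. For the genotypes under vehicle, 10 members became 6 with the block and 18 with only the 2 groups, and 5 to 19 without single libraries; under WM1119, 6 became 3 with only the 2 groups and 3 to 14 without single libraries. The interaction went from 0 to 1 without a filter, 2 with DESeq2, and 0 to 1 without single libraries. LDHA under WM1119 in WT cells ran from -0.41 to 0.10 without single libraries around -0.14, positive without WT WM1119 library 3. The cause of these moves was not tested. A fit to 2 groups has fewer libraries, and those for WM1119 in R183W cells and for the genotypes under vehicle also leave out WT WM1119 library 3. Of 52 gene results called, 17 kept their call in all 17 settings tried. Among members the replicate block ended the calls of PGK1 and ERO1A (WM1119 in R183W cells), and BNIP3, GAPDH and PFKL (WM1119 in WT cells). Between genotypes it ended those of TPI1, PGAM1, HK1 and PFKP under vehicle, and ALDOA and BNIP3 under WM1119. Only the 2 groups ended those of HIF1A, CA12, BNIP3, GAPDH and PFKL (WM1119 in WT cells), and ALDOA, BNIP3 and SLC2A3 (genotypes under WM1119). Correlations of deviations in 15 same-numbered pairs ran from -0.391 to 0.137, with 2 over 0.1. In 30 other-numbered pairs they ran from -0.163 to 0.405, with 5 over 0.1. Deviations from a mean of 2 or 3 libraries are tied to each other, so these values cannot settle whether the numbers pair libraries. The labels name no pairing, and the block is only a check.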
